A study of Homo sapiens with 8 samples.

Results

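HMGA1, HMGA2, LIN28B, IGF2BP1, IGF2BP2 and IGF2BP3 were followed in SCC25 cells, an established human line of head and neck cancer (squamous cell carcinoma), in which the transcription factor ETS1 was knocked down. These 6 genes are 6 of the 56638 gene symbols listed in both deposited count tables. The group was chosen by the measured log2 fold changes of HMGA2, whose level was lower in both knockdowns, together with 5 partners that are known as oncofetal genes and as targets of the microRNA let-7. The HMGA2 changes themselves were therefore the basis of the choice, and they are given as a description without a test. The question put to the data was whether the 5 partners followed HMGA2.

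The 8 libraries formed 4 groups of 2. Cells named siRNA control received non-targeting small interfering RNAs, and cells named ETS1 siRNA received a pool of siRNAs against ETS1 for a transient knockdown. Cells named shCON carried a non-silencing hairpin and cells named shETS1 a stably integrated hairpin against ETS1, whose labels name a single construct, and both stable lines were kept under puromycin. All cells grew in medium with serum and hydrocortisone. The paper calls the siRNA-treated cells biological replicates, but nothing states that the hairpin replicates came from separate transductions. The p-values measure the spread between these libraries, which may be technical for the hairpin libraries.

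HMGA1 and HMGA2 encode architectural chromatin proteins that bind AT-rich DNA through AT hooks. LIN28B is an RNA-binding protein that blocks the maturation of let-7 precursors, and the IGF2BP proteins bind messenger RNAs and affect their stability, localization and translation. All are abundant in the embryo, apart from IGF2BP2 largely silent in adult tissue, and often expressed again in carcinomas. Mature let-7 pairs through its seed with sites in the 3′ untranslated regions (3′ UTRs) of their messenger RNAs and lowers them, while LIN28B holds let-7 down.

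The sequences that tie the 6 genes together are the let-7 seed and its matches. The 9 mature let-7 and miR-98 sequences of RefSeq (GRCh38.p14 table) shared the same seed, bases 2 to 8, which is set in capitals in 3 of them that differ elsewhere.
hsa-let-7a-5p: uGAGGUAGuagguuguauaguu
hsa-let-7d-5p: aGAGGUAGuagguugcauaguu
hsa-miR-98-5p: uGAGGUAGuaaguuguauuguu

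A let-7 match was counted where the sense strand of a 3′ UTR held CTACCTC, the complement of the seed, or TACCTCA, the complement of bases 2 to 7 followed by A. Both together give the octamer CTACCTCA. A second heptamer, ACCTCAA, was also searched because an earlier look at these same data had named it among messages that were lower after siRNA. It shares 6 bases with TACCTCA, and the overlap of CTACCTCA and ACCTCAA gives the nonamer CTACCTCAA. Only the UTR's own strand was searched, and matches that overlapped were merged into 1 site.

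In the 3′ UTR of its canonical transcript, 2999 bases long, HMGA2 held 7 let-7 matches and 3 copies of ACCTCAA, of which 2 overlapped a let-7 match. The 8 merged sites are printed with GRCh37 coordinates on the plus strand, with the matching bases in capitals, because HMGA2 had the lowest log2 fold change of the 6 genes in both knockdowns.
HMGA2 site 1, chr12:66357083-66357109: cgttcgatttCTACCTCAgcagcagtt
HMGA2 site 2, chr12:66357519-66357544: cactgtgtacACCTCAAataccaccc
HMGA2 site 3, chr12:66358169-66358195: gaataccactTACCTCAAattaagcat
HMGA2 site 4, chr12:66358318-66358343: ctactcaataCTACCTCtgaatgtta
HMGA2 site 5, chr12:66358681-66358707: tccaagtctgTACCTCAAatgaattct
HMGA2 site 6, chr12:66358730-66358755: ttgcaaagacCTACCTCcagacttca
HMGA2 site 7, chr12:66359583-66359608: aaacacactaCTACCTCttaagtccc
HMGA2 site 8, chr12:66359603-66359628: agtcccagtaTACCTCAtttttcata

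The choice of transcript decided this result for HMGA2. Its longest annotated 3′ UTR, 7421 bases in a transcript with another end, shares 0 bases with the canonical one and held 0 matches of either kind. For the other 5 genes the longest and the canonical 3′ UTR were the same. Reads were counted per gene, so the share of each HMGA2 transcript was not measured.

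Among the partners, ACCTCAA occurred in the IGF2BP1 message alone. IGF2BP1 held 5 let-7 sites in 6701 bases, and in 2 of them the match ran on into ACCTCAA as the full nonamer. LIN28B held 5 let-7 sites in 4549 bases, of which 2 were octamers, and IGF2BP2 held 3 in 2401 bases. IGF2BP3, with 2153 bases, and HMGA1, with 1347 bases, held 1 each. The 2 nonamers of IGF2BP1 and the best let-7 match of each other partner are shown for comparison with HMGA2.
IGF2BP1 site 1, chr17:47128428-47128455, plus strand: gcgaagtaaaCTACCTCAAggtatgaag
IGF2BP1 site 4, chr17:47131719-47131746, plus strand: aatggattaaCTACCTCAAtccttacag
LIN28B site 1, chr6:105526692-105526718, plus strand: gttgcaaagtCTACCTCAtgcaagtat
LIN28B site 3, chr6:105529301-105529327, plus strand: cagcaaaaggCTACCTCAtagttgata
IGF2BP2 site 1, chr3:185361999-185362025, minus strand: acagaagaagCTACCTCAggtgttttt
IGF2BP3 site 1, chr7:23351405-23351431, minus strand: ttttactcaaCTACCTCAggtattcag
HMGA1 site 1, chr6:34213611-34213636, plus strand: tgttcacaaaCTACCTCtggacagtt

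**Figure D1:**
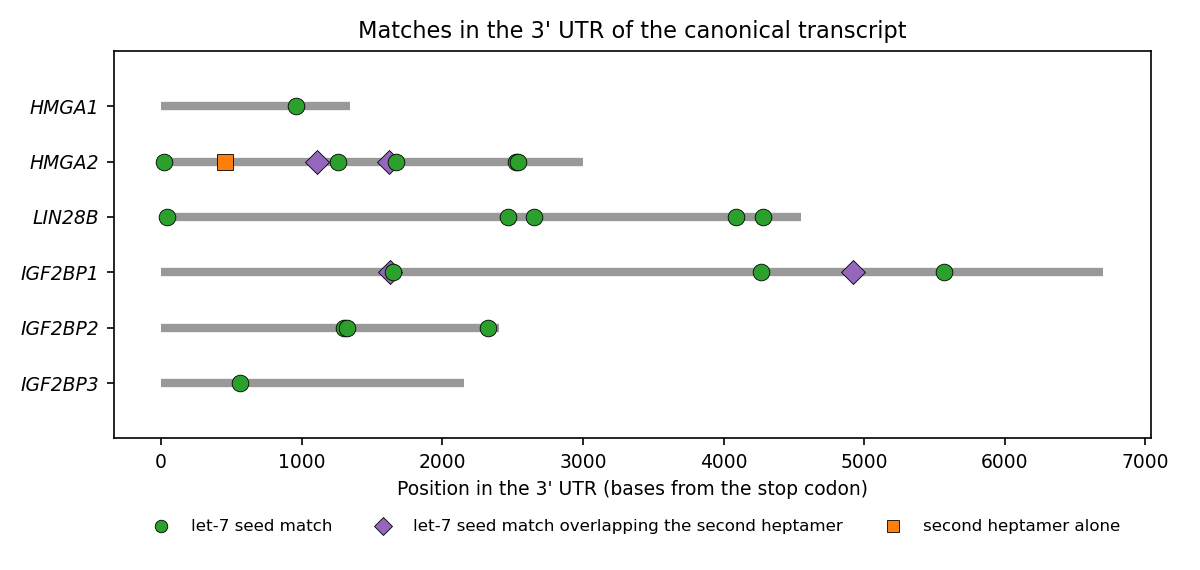
Positions of the matches in the 3′ UTR of the canonical transcript of each gene, in bases from the stop codon; grey bars give the length of the UTR, circles let-7 seed matches, diamonds let-7 matches that overlap ACCTCAA and the square ACCTCAA alone. HMGA2 holds 8 sites in 2999 bases, IGF2BP1 holds 5 in 6701 bases and HMGA1 and IGF2BP3 hold 1 each.

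In the canonical 3′ UTRs of 18560 protein-coding genes, CTACCTC occurred in 9.78%, TACCTCA in 10.7%, the octamer in 3.74%, ACCTCAA in 11.1% and the nonamer in 0.577%. A match is a run of letters and was not tested as a binding site.

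The libraries held between 15954616 and 25953213 counts. The siRNA and shRNA tables differ in the RNAs they hold, since 5 structural RNAs made up at most 0.00339% of the counts in the siRNA libraries, 5.61% to 6.63% in shCON and 9.64% to 12.3% in shETS1. Levels are given as CPM, counts relative to the library total scaled within each table, and they were not compared between the tables. ETS1 itself was at 5.70% of its control after siRNA (log2 fold change -4.13, SE 0.19) and at 13.5% after shRNA (log2 fold change -2.89, SE 0.10), each called by edgeR, with a threshold of 0.1 on the p adjusted after Benjamini and Hochberg. The 7 epithelial markers, with 0 of them at 0, summed to 14400 and 18900 CPM in siRNA control and to 25500 and 21700 CPM in ETS1 siRNA. After siRNA edgeR called 0 of the 7, beside 3.41% of all genes. Their median log2 fold change was 0.36, from -0.53 for EPCAM to 0.78 for KRT14. They summed to 14600 and 14700 CPM in shCON and to 24000 and 23700 CPM in shETS1, where KRT17, KRT6A, KRT5 and KRT14 rose and EPCAM and TP63 fell, and their part in the shRNA results was not tested. Leukocyte markers summed to 1.41 to 4.01 CPM. The 7 fibroblast markers, none at 0, summed to 216 and 186 CPM in siRNA control and to 287 and 336 CPM in ETS1 siRNA. After siRNA edgeR called 1 of the 7, COL1A1, higher at 0.73 (SE 0.14), beside 1.13% of all genes, with a list median of 0.31. They summed to 255 and 280 CPM in shCON and to 2230 and 2140 CPM in shETS1. After shRNA, 6 of the 6 fibroblast markers tested were called higher, beside 29.7% of all genes, led by COL3A1 and DCN, which encode matrix proteins. These rises ran beside every shRNA result given here, and their part in it was not tested. Of the 4 endothelial markers KDR alone passed the filter and rose after shRNA, with the list at 1.97 to 2.03 CPM in shCON and 23.9 to 24.1 CPM in shETS1. More or fewer cells of a type and more or less RNA per cell cannot be told apart in such bulk libraries.

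HMGA2 (chromosome 12, 66218240 to 66360071, plus strand, GRCh37) was the member with the largest change after siRNA. Its level was 543 and 360 CPM in the siRNA control libraries and 69.6 and 78.2 CPM in the ETS1 siRNA libraries. The controls differed from each other, but both were far above the knockdown libraries. The log2 fold change was -2.61 (SE 0.20, 95% interval -3.08 to -2.14), which left 16.4% of the control level and ranked 3rd lowest of 14742 genes tested.

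After shRNA, the HMGA2 level was 159 and 148 CPM in shCON and 37.3 and 42.5 CPM in shETS1. Again the groups did not overlap, and the replicates lay close together. The log2 fold change was -1.94 (SE 0.08, 95% interval -2.12 to -1.77), 268th lowest of 16481 genes, with 26.0% of the control level left. The shRNA change minus the siRNA change was 0.65 (SE 0.24, 95% interval 0.12 to 1.17), and without replicate 1 of siRNA control, the higher of the 2 control libraries, it was 0.31.

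**Figure D2:**
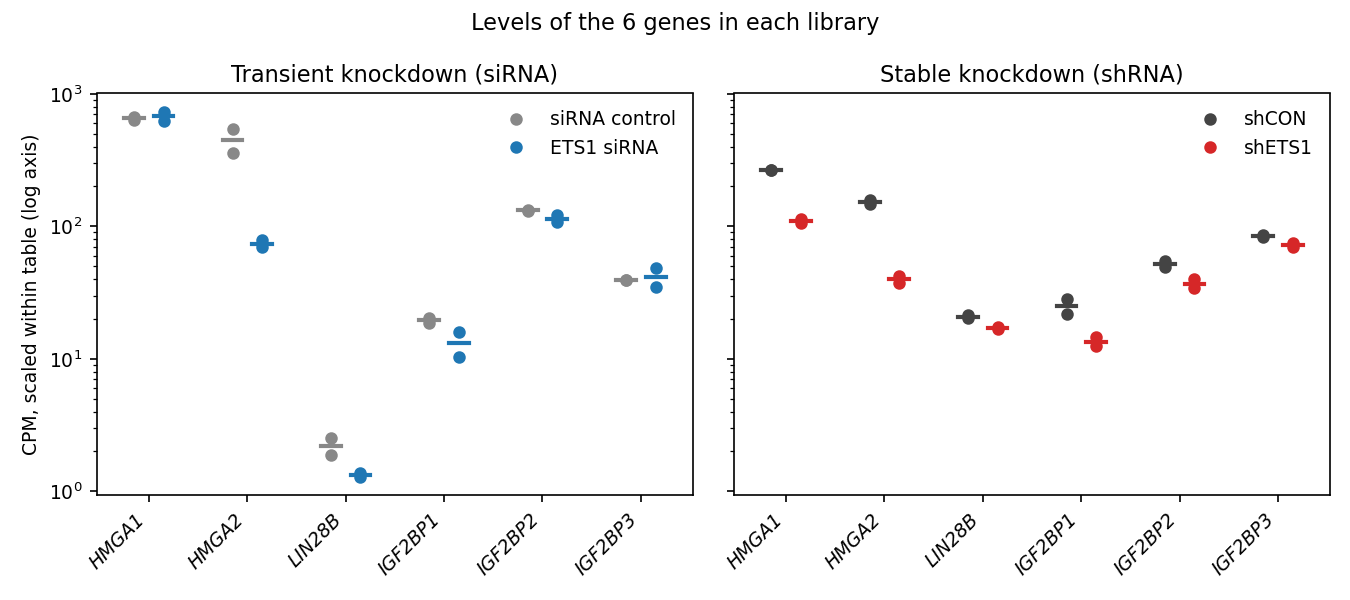
Level of each gene in CPM on a log axis, scaled within each table, with 1 point per library and a line at the mean of the 2 libraries of a group. HMGA2 falls from 543 and 360 CPM to 69.6 and 78.2 CPM in the left panel and from 159 and 148 CPM to 37.3 and 42.5 CPM in the right panel, whereas HMGA1 overlaps between the groups in the left panel and does not in the right.

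After siRNA, 0 of the 5 partners of HMGA2 were called by edgeR at an adjusted p under 0.1, where 3.41% of all genes tested were called, 2.27% lower and 1.13% higher. Among the partners, 1 (IGF2BP1) had an unadjusted p under 0.05, and DESeq2 called 0 of them. The groups did not overlap, with the knockdown lower, for LIN28B, IGF2BP1 and IGF2BP2, beside 26.2% of all genes tested.

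After shRNA, 5 of the 5 partners were called lower, where 30.9% of all genes tested were called lower, 29.7% higher and 60.6% in either direction. Nor did the groups overlap for any of the 5 partners, beside 38.6% of all genes lower without overlap. The 5 partners ranged in log2 fold change from -1.28 for HMGA1 to -0.21 for IGF2BP3, all nearer to 0 than HMGA2 at -1.94.

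HMGA1 (chromosome 6, 34204650 to 34214008, plus strand), the paralogue of HMGA2, had the largest difference between the knockdowns among the 6 genes. Its level was 671 and 638 CPM in siRNA control and 619 and 732 CPM in ETS1 siRNA, and the groups overlapped. The log2 fold change after siRNA was 0.05 (SE 0.13, 95% interval -0.25 to 0.34, edgeR adjusted p 0.88), so a fall of the size seen for HMGA2 lay outside the interval.

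In the stable lines HMGA1 was at 265 and 267 CPM in shCON and at 106 and 113 CPM in shETS1. Both knockdown libraries were far below both controls, and HMGA1 fell by 1.28 on the log2 scale (SE 0.07, 95% interval -1.44 to -1.13, edgeR adjusted p 1.8e-10), to 41.1% of its control. The difference between the knockdowns was itself called, at -1.35 (SE 0.15, 95% interval -1.67 to -1.02, edgeR adjusted p 0.00015), and in leaving out each library in turn it ranged from -1.47 to -1.23. Processed pseudogenes named HMGA1P had at most 14 counts in a library, so they took few reads, although the treatment of reads with several matches is not stated.

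LIN28B (chromosome 6, 105384491 to 105531207, plus strand), the inhibitor of let-7 maturation, was the least abundant member in the siRNA libraries. It had 50 and 30 counts in siRNA control and 22 and 28 counts in ETS1 siRNA, or 2.52 and 1.87 CPM against 1.28 and 1.38 CPM. The knockdown libraries were the lower ones, but the log2 fold change of -0.73 (SE 0.32, 95% interval -1.45 to 0.00) was not past the threshold (edgeR adjusted p 0.27). With so few counts the interval ran from no change to a fall by 1.45.

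In the shRNA table LIN28B had 509 and 554 counts in shCON and 383 and 437 counts in shETS1, or 20.2 and 21.4 CPM against 16.7 and 17.3 CPM. LIN28B fell by 0.29 on the log2 scale (SE 0.10, edgeR adjusted p 0.021), to 81.8% of its control. Without replicate 2 of shCON the change was -0.25 and was no longer called (edgeR adjusted p 0.16). The difference between the knockdowns was 0.42 (SE 0.25, 95% interval -0.14 to 0.98, edgeR adjusted p 0.26). LIN28A, its paralogue, was under the filter on low counts in the siRNA and in the shRNA comparison.

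IGF2BP1 (chromosome 17, 47074747 to 47133507, plus strand) had changes nearer to those of HMGA2, over all 8 libraries, than HMGA1, IGF2BP2 and IGF2BP3 had. Its level was 18.7 and 20.5 CPM in siRNA control and 15.9 and 10.4 CPM in ETS1 siRNA. Both knockdown libraries were lower and differed from each other by more than the controls did, and the log2 fold change of -0.58 (SE 0.21, 95% interval -1.05 to -0.10) was not past the threshold (edgeR adjusted p 0.21). The log2 fold change was -0.90 without replicate 1 of ETS1 siRNA and -0.30 without replicate 2, each with 1 knockdown library left.

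After shRNA, IGF2BP1 stood at 28.3 and 21.9 CPM in shCON and at 12.4 and 14.5 CPM in shETS1, and it fell by 0.90 on the log2 scale (SE 0.13, edgeR adjusted p 1.1e-05), to 53.7% of its control. The difference between the knockdowns was -0.34 (SE 0.28, 95% interval -0.95 to 0.27, edgeR adjusted p 0.41).

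IGF2BP2 (chromosome 3, 185360918 to 185542830, minus strand), the IGF2BP gene that stays expressed in adult tissues, was at 133 and 131 CPM in siRNA control and at 122 and 107 CPM in ETS1 siRNA. The groups were separate but close, with a log2 fold change of -0.20 (SE 0.13, 95% interval -0.51 to 0.10, edgeR adjusted p 0.45). In shCON it was at 54.8 and 49.6 CPM and in shETS1 at 34.2 and 39.7 CPM, and it fell by 0.50 on the log2 scale (SE 0.09, edgeR adjusted p 0.00017). The difference between the knockdowns was -0.31 (SE 0.16, 95% interval -0.67 to 0.04, edgeR adjusted p 0.18).

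IGF2BP3 (chromosome 7, 23349828 to 23510110, minus strand) had the smallest change of the 6 genes after shRNA. Its level was 39.4 and 39.6 CPM in siRNA control and 48.1 and 35.1 CPM in ETS1 siRNA, so that the knockdown libraries lay on either side of the controls (log2 fold change 0.07, SE 0.16, 95% interval -0.30 to 0.44, edgeR adjusted p 0.85). In shCON it was at 82.5 and 86.1 CPM and in shETS1 at 70.4 and 74.9 CPM, and it fell by 0.21 on the log2 scale (SE 0.07, edgeR adjusted p 0.022). Without replicate 2 of shCON the change was -0.18 and not called (edgeR adjusted p 0.18). The difference between the knockdowns was -0.31 (SE 0.19, 95% interval -0.72 to 0.11, edgeR adjusted p 0.27).

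Exons of IGF2BP3 share 1521 bases with MALSU1 on the opposite strand, and the use of strand in counting is not stated, so reads of the 2 genes may be mixed. MALSU1 had a log2 fold change of 0.21 (SE 0.14) after siRNA and of -0.16 (SE 0.08) after shRNA, and neither was called.

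**Figure D3:**
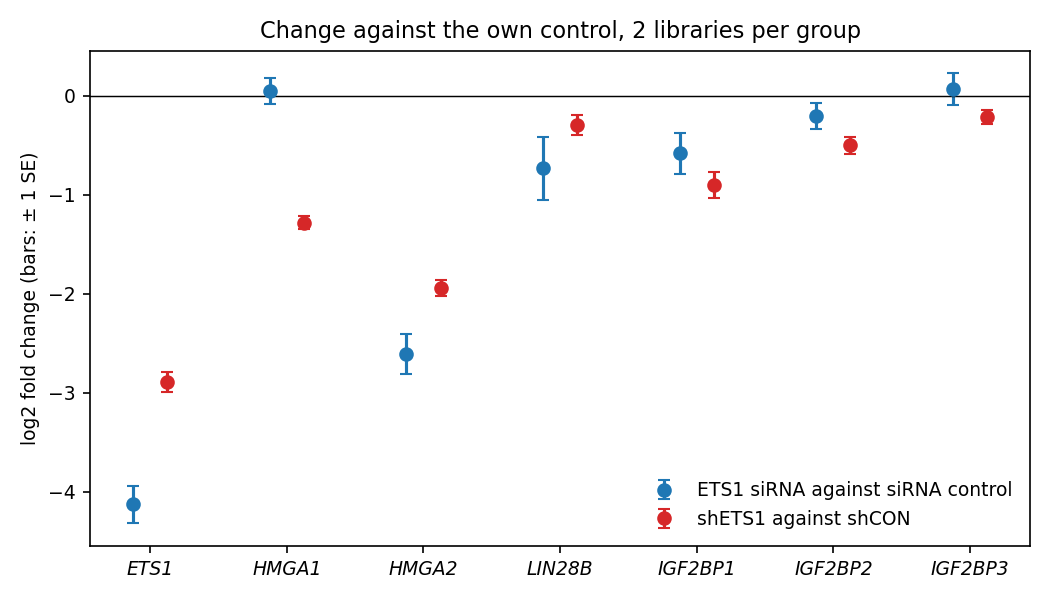
Log2 fold change of ETS1 and the 6 genes against the own control, with bars of 1 SE, from 2 libraries per group; blue is ETS1 siRNA and red shETS1. HMGA1 lies at 0.05 after siRNA and at -1.28 after shRNA, while HMGA2 lies at -2.61 and -1.94.

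Of the 5 partners, 1 had a called difference between the knockdowns, HMGA1, below 0, where 34.8% of all genes tested had one, 19.7% below 0 and 15.1% above. The choice of HMGA2 by its fall in both knockdowns bears on its own difference of 0.65, which is given as a value and is not counted. For LIN28B, IGF2BP1, IGF2BP2 and IGF2BP3 the intervals of the difference held 0.

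Levels between genes were compared as TPM, in which counts are divided by the length of all exons of the gene, within a library. HMGA1 was the most abundant of the 6 in all 4 groups, at 1230 ± 70.8 TPM (SD, n = 2) in siRNA control and 391 ± 22.5 TPM (SD, n = 2) in shCON. In siRNA control HMGA2 followed at 131 ± 40.5 TPM (SD, n = 2) and did not differ beyond its replicate range from IGF2BP2 at 108 ± 3.54 TPM (SD, n = 2). IGF2BP3 at 20.2 TPM, IGF2BP1 at 8.90 TPM and LIN28B at 1.62 TPM came next, each apart from its neighbours.

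In ETS1 siRNA the HMGA2 level of 20.1 TPM dropped below that of IGF2BP2 at 88.6 TPM and lay within the range of IGF2BP3, also at 20.1 TPM. In shCON, HMGA2 at 34.9 TPM, IGF2BP3 at 33.8 TPM and IGF2BP2 at 33.6 TPM had overlapping ranges, above LIN28B at 12.0 TPM and IGF2BP1 at 8.97 TPM. In shETS1 HMGA2 was 5th of the 6 at 7.36 TPM, within the range of LIN28B at 7.94 TPM. The place of HMGA2 depends on the length given to it, since its exons span 15070 bases in all and 4117 in the canonical transcript. With canonical lengths HMGA2 stood apart from IGF2BP2 in siRNA control, at 312 and 199 TPM against 73.6 and 69.9 TPM for IGF2BP2. In ETS1 siRNA it was then at 37.7 and 39.8 TPM, above IGF2BP3 at 25.1 and 17.2 TPM. In shCON, HMGA2 at 85.4 and 73.6 TPM, IGF2BP3 at 42.7 and 41.4 TPM and IGF2BP2 at 28.3 and 23.8 TPM were then separate. In shETS1 HMGA2 was 3rd with canonical lengths, at 15.4 and 19.5 TPM, but its range overlapped that of IGF2BP2 at 13.6 and 17.5 TPM.

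Transcripts that overlap the 6 genes on the other strand were examined because counting without strand could mix them. HMGA2-AS1, a long noncoding RNA, shares 384 exon bases with HMGA2 on the opposite strand. Opposite-strand long noncoding RNAs without a gene name share 37 and 76 exon bases with IGF2BP1. None of these was matched to a symbol with counts, so their reads and any mixing were not measured. RPSAP52, a transcribed pseudogene (chromosome 12, 66151800 to 66220777), overlaps the 5′ end of HMGA2 head to head without shared exon bases. It had 384 and 296 counts in siRNA control and 274 and 375 counts in ETS1 siRNA, with a log2 fold change of -0.13 (SE 0.15, edgeR adjusted p 0.68). In shCON it had 132 and 142 counts and in shETS1 12 and 11 counts, and it fell by 3.48 on the log2 scale (SE 0.25, edgeR adjusted p 4.5e-09).

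HMGA2 and its neighbour RPSAP52 were therefore both low after shRNA, and after siRNA HMGA2 alone was. The difference between the knockdowns for RPSAP52 was -3.36 (SE 0.25, edgeR adjusted p 2.2e-05), the opposite sign to the 0.65 of HMGA2. LINC00577, which overlaps the start of LIN28B on the other strand, had 0 counts in all 8 libraries, and C3orf65, inside IGF2BP2, had between 4 and 72 counts.

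**Figure D4:**
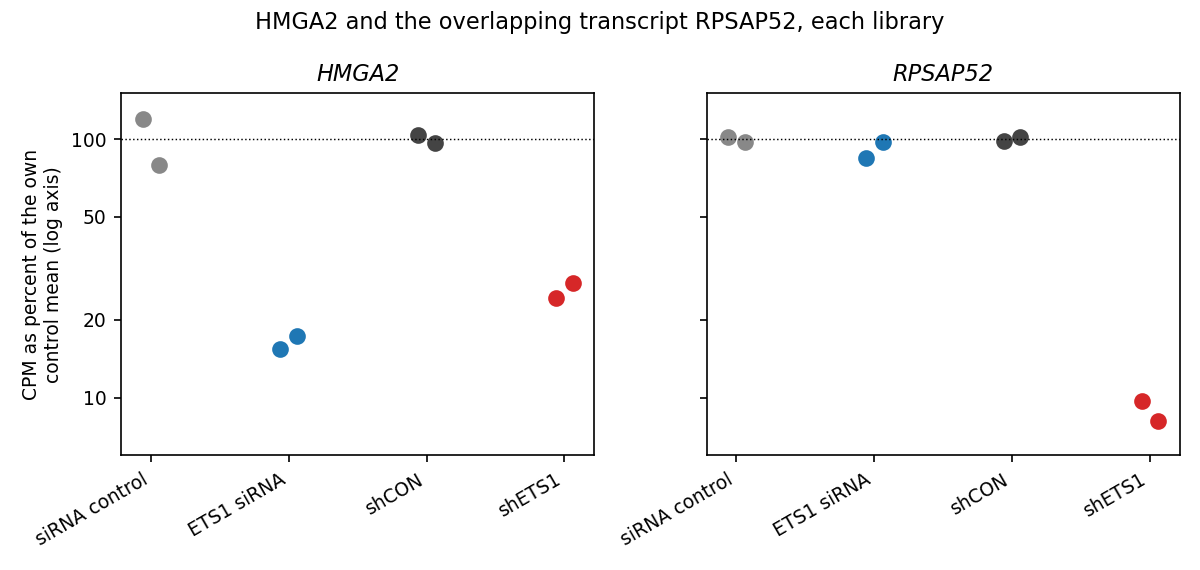
CPM of HMGA2 and of RPSAP52 in each library as percent of the mean of the own control group, on a log axis; the dotted line is 100 percent. HMGA2 stands at 15.4 and 17.3 percent in ETS1 siRNA and at 24.3 and 27.7 percent in shETS1, whereas RPSAP52 stands at 84.3 and 97.7 percent in ETS1 siRNA and at 9.75 and 8.13 percent in shETS1.

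The genes most like HMGA2 were sought by the distance between log2(CPM + 1) profiles, each taken relative to the own control mean, over 8 libraries and among 10049 genes whose mean reached 5 CPM or more in each table. The nearest were NCR3LG1 (distance 1.67), which encodes a ligand of a natural killer cell receptor, PTGS2 (1.82), the inducible cyclooxygenase, GXYLT1 (1.92), a xylosyltransferase that acts on Notch, ANP32E (1.99), a histone chaperone, and FAM217B (2.13). NCR3LG1 had log2 fold changes of -1.70 after siRNA and -1.71 after shRNA, and PTGS2 of -1.39 and -2.45.

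The partners of HMGA2 were farther away, with IGF2BP1 at rank 159 of these genes, HMGA1 at 927, IGF2BP2 at 1342 and IGF2BP3 at 4584. LIN28B was below the 5 CPM minimum in the siRNA table and got no rank. In the canonical 3′ UTR, NCR3LG1 held 2 copies of ACCTCAA, GXYLT1, ANP32E and FAM217B held 1 each, and PTGS2 held 0. GXYLT1 also held 2 let-7 matches, NCR3LG1, ANP32E and FAM217B held 1 each, and PTGS2 held 0. ACCTCAA occurred in 44% of the genes called lower after siRNA, beside 12.2% of those tested, by canonical 3′ UTRs. After shRNA it occurred in 12.5% of the genes called lower, beside 12.2% of those tested. The heptamer was first named among messages lower after siRNA in these same data, so the 44% is no independent support for it. The 5 genes were picked for changes like those of HMGA2, so their matches are a description.

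The matches were then counted over all genes tested, in the longest annotated 3′ UTR of each, to place the 6 genes among other messages with let-7 matches. By its longest 3′ UTR HMGA2 itself falls in the class with neither match. After siRNA the median log2 fold change was 0.033 for 9486 genes with neither match, -0.055 for 1683 with a let-7 match only, -0.123 for 914 with ACCTCAA only and -0.147 for 801 with both. The shares called lower were 1.43%, 2.91%, 7.44% and 9.11%. With at least 2 copies of ACCTCAA the median was -0.219 and the share called lower 13.1%, whereas 374 genes with the full let-7 octamer and no ACCTCAA had a median of -0.063 and a share of 1.34%.

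After shRNA the medians of the same 4 classes lay between -0.044 and -0.017 and the shares called lower between 34.7% and 35.9%. Longer UTRs hold more matches by length alone, with medians of 1142.5, 2655, 2818 and 4336 bases in the 4 classes after siRNA, and the part of UTR length in these medians was not tested. Since ACCTCAA came from an earlier look at the same libraries, its class medians are no independent support for it.

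**Figure D5:**
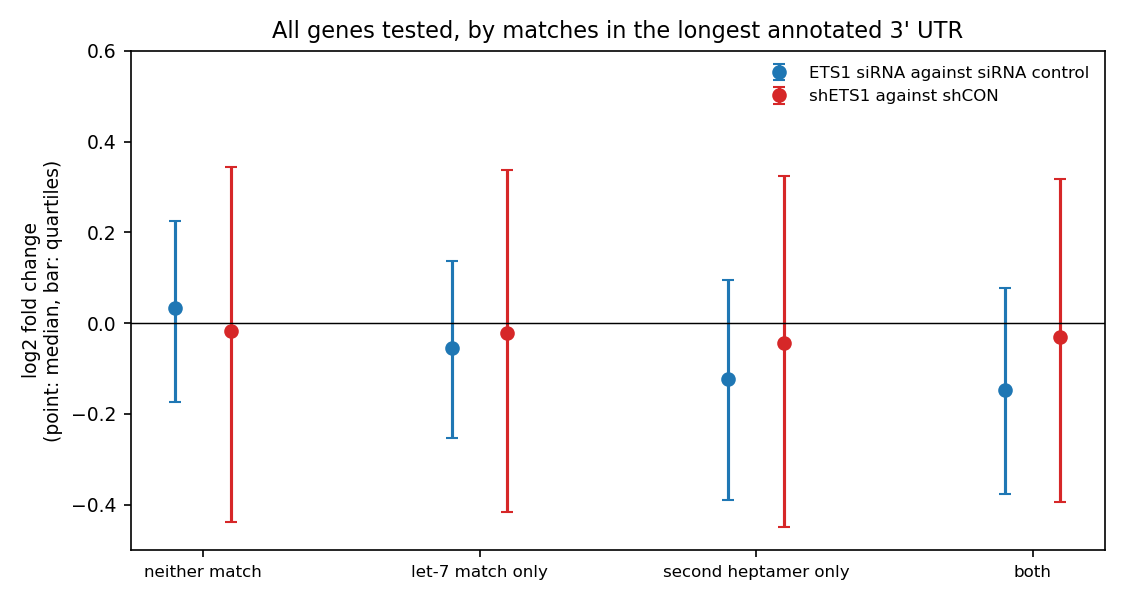
Log2 fold change of all genes tested, by matches in the longest annotated 3′ UTR; points are medians and bars run from the lower to the upper quartile. After siRNA (blue) the medians go from 0.033 with neither match to -0.147 with both, and after shRNA (red) the 4 medians lie between -0.044 and -0.017. HMGA2 counts here among the genes with neither match.

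Set among these classes by their canonical UTRs, HMGA2 and IGF2BP1 are 2 of the 236 genes tested after siRNA with at least 2 copies of ACCTCAA, whose median was -0.228 with quartiles of -0.461 and 0.022. HMGA2 at -2.61 lay far below this range, and IGF2BP1 at -0.58 lay just below its lower quartile. LIN28B is 1 of 37 genes with at least 3 let-7 matches and no ACCTCAA, with quartiles of -0.308 and 0.084, and its -0.73 lay below them on few counts. IGF2BP2, also in that class, lay inside the quartiles at -0.20. HMGA1 and IGF2BP3, with a let-7 match and no ACCTCAA, had 0.05 and 0.07, inside the quartiles of their class at -0.256 and 0.137.

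After siRNA, 41 other reported let-7 targets could be tested, and edgeR called 2 of them higher and 5 lower, beside 1.13% and 2.27% of all genes, with a median of -0.07 beside 0.00 over all genes. NRAS, a RAS oncogene, fell by 1.99 on the log2 scale (edgeR adjusted p 0.0027), and its UTR held 2 let-7 matches and 2 copies of ACCTCAA. THBS1 fell by 0.83, ITGB3 by 0.97, DICER1 by 0.76 and CCND2 by 0.55, and these 4 held let-7 matches and no ACCTCAA. CDK6, a cell cycle kinase, rose by 1.03 with 1 of each match, and CDC34 rose by 0.56.

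Of the 41 targets, 16 held ACCTCAA, of which 1 was called lower and 1 higher, and 25 did not, of which 4 were called lower and 1 higher. After shRNA, 6 of 41 targets were called higher and 20 lower, beside 29.7% and 30.9% of all genes, with a median of -0.15 beside 0.00 over all genes. The 6 with the smallest adjusted p were RRM2 at -1.79, CCNF at -1.77, CCND2 at -3.11, AURKB at -1.36, CDC25A at -1.10 and MYC at -0.75 in log2 fold change. NRAS had a log2 fold change of -0.02 after shRNA, beside -1.99 after siRNA.

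The let-7 pathway was described through 22 genes of let-7 processing and action, LIN28B included. After siRNA, 1 of 20 tested was called, beside 3.41% of all genes. This was DICER1, the nuclease that cuts let-7 from its precursor, which fell by 0.76 on the log2 scale (SE 0.15, edgeR adjusted p 0.06). After shRNA, 5 of 21 were called higher and 10 lower, beside 29.7% and 30.9% of all genes, with a median of -0.29. In either direction 60.6% of all genes were called, so a call of a single gene here is common. DROSHA, the nuclear nuclease of the pathway, fell by 0.92, AGO1 by 0.88 and AGO2 by 0.75, both Argonaute proteins that carry microRNAs, while KHSRP and HNRNPA1, RNA-binding proteins that act on let-7 precursors, fell by 0.75 and 0.73. ZCCHC6, a terminal uridylyltransferase, rose by 0.52.

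Mature let-7 was not measured by these libraries. The rows of the 12 let-7 and miR-98 genes had between 0 and 17 counts in each library. Among let-7 host transcripts, 0 of 3 tested were called after siRNA by edgeR, beside 3.41% of all genes. Of these 3, 0 had an unadjusted p under 0.05 and DESeq2 called 0. After shRNA, LINC00478, the host of let-7c, rose by 1.87 on the log2 scale (SE 0.21, edgeR adjusted p 9.1e-07), from 30 and 38 counts to 116 and 119. HUWE1 fell by 0.60 and WDR82 by 0.25.

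In the wider HMG family, 14 genes beside HMGA1 and HMGA2 were tested. After siRNA edgeR called 0 of them, beside 3.41% of all genes, with 1 at an unadjusted p under 0.05 and 1 called by DESeq2. The median log2 fold change was 0.04. After shRNA, 4 were called higher and 8 lower, beside 29.7% and 30.9% of all genes, with a median of -0.39. HMGB1, HMGB2 and HMGN2, abundant chromatin proteins, fell by 0.51, 0.60 and 0.59, SSRP1, a subunit of a histone chaperone, fell by 0.73 and HMGXB4 by 0.97, while HMGN3 rose by 1.23.

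Other oncofetal genes did not move one way. Of 12 listed, 6 were tested after siRNA and edgeR called 0, beside 3.41% of all genes. Of the 6, 3 had an unadjusted p under 0.05 and DESeq2 called 0. After shRNA, 3 of 7 were called higher and 3 lower, beside 29.7% and 30.9% of all genes. H19, an imprinted long noncoding RNA, rose by 1.44 and PLAC1, a placental gene, by 1.21, whereas PEG10 fell by 1.5, SALL4, a stem cell transcription factor, by 0.79 and TPBG by 0.39 on the log2 scale. GPC3 was called higher on few counts, 4 and 1 in shCON against 30 and 30 in shETS1.

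Messages reported as bound by IGF2BP proteins were listed as a readout of the IGF2BP members, and the list holds HMGA1, HMGA2 and LIN28B themselves. After siRNA 2 of 13 tested were called higher and 1 lower, beside 1.13% and 2.27% of all genes. The higher ones were CTNNB1 and CDK6, with log2 fold changes of 0.81 and 1.03, and the lower one was HMGA2. After shRNA, 3 were called higher and 7 lower, beside 29.7% and 30.9% of all genes, with a median of -0.54. HMGA2, HMGA1 and LIN28B are among the 7 lower and enter the median, so both partly restate the members' own falls. Outside the members, those named here as lower were MYC at -0.75, CD44, a hyaluronan receptor, at -0.96 and ACTB at -0.77. H19 was higher at 1.44. None of these lists was tested as a set.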

How the data were processed

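RNA was extracted from SCC25 cells and TruSeq libraries were sequenced as 50 base single-end reads. The authors mapped the reads to GRCh37 with TopHat2 2.1.1 and Bowtie2 2.2.6 and assigned them to Ensembl genes with featureCounts 1.5.0. The deposited files give unnormalized read counts for each gene symbol, 1 table per knockdown. The use of strand and of reads with several matches is not given in the sources used here. Both tables list 56638 symbols, of which 21266 had no reads, and no per-sample column was left unused.

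With edgeR 4.0.16 (R 4.3.3) the knockdown libraries were set against their own controls in a two-sided quasi-likelihood F-test, after filterByExpr and TMM, and the difference was tested in a fit of all 8 libraries. The threshold for a call was 0.1 on the Benjamini-Hochberg adjusted p over all genes tested. The 6 members passed the filter in every comparison. DESeq2, which the authors ran at this threshold, was an alternative here (version 1.42.0). Intervals are 95% and use the degrees of freedom of the fit. The common dispersion was 0.0192 in the siRNA and 0.00402 in the shRNA libraries, so the siRNA comparison was the less precise. Replicate libraries had a chi-square per degree of freedom from 6.23 to 23.2, above sampling noise. Same-numbered replicates did not deviate together, and the numbers were not used to pair libraries.

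Gene positions, lengths and 3′ UTRs came from GENCODE v44 lifted to GRCh37. Of the symbols, 33522 matched a current and 1838 an older name, 377 were ambiguous and 20901 were not matched. The members and lists (let-7 processing, let-7 hosts, other let-7 targets, other oncofetal genes, HMG family, IGF2BP-bound messages and cell type markers) were chosen with earlier results of these data known. Genes named are ETS1, the members, genes overlapping them, up to 6 called genes of a list per comparison by adjusted p, and the 5 genes nearest to HMGA2. NRAS after shRNA and GPC3's counts were chosen after their values were seen. The scripts were tested on simulated data. Alternatives were 3 other scalings, 3 other filters, DESeq2, a replicate block, a fit of all 8 libraries, an adjusted p under 0.05, leaving out each library, another UTR and another gene length.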

Additional observations from a re-analysis of the deposited data

Results flagged for a closer look

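The results given here had a called difference between the knockdowns, the shRNA change minus the siRNA change on the log2 scale, in the edgeR fit of all 8 libraries. Among all genes tested 34.8% had one, and the kind of knockdown cannot be told apart from the preparation of the 2 tables. ETS1 differed by 1.23, since it was lower after siRNA than after shRNA relative to the controls. Among the members, HMGA1 differed by -1.35. HMGA2 was chosen for its falls, so only values are given and no call is counted for it. It differed by 0.65, by 0.62 with the replicate block, by 0.56 with library size only, and down to 0.31 without a single library. Among the overlapping transcripts, RPSAP52 differed by -3.36, MALSU1 by -0.39 and C3orf65, which had at most 72 counts in a library, by -1.70. Among the genes nearest to HMGA2, PTGS2 differed by -1.08, GXYLT1 by 1.01, FAM217B by 0.80 and ANP32E by 0.52.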

How the results depend on the processing

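Leaving out any 1 library kept the sign of all 6 members after shRNA and in the difference. Leaving out 1 library gave, after siRNA, log2 fold changes of -2.88 to -2.28 for HMGA2, -0.08 to 0.17 for HMGA1 and -0.92 to -0.49 for LIN28B. They were -0.90 to -0.30 for IGF2BP1, -0.30 to -0.12 for IGF2BP2 and -0.17 to 0.28 for IGF2BP3. HMGA1 turned to -0.08 without replicate 2 of ETS1 siRNA and IGF2BP3 to -0.17 without replicate 1, neither called. After shRNA the ranges were -2.04 to -1.86 for HMGA2, -1.33 to -1.24 for HMGA1 and -0.33 to -0.25 for LIN28B. Those of the IGF2BP genes were -1.07 to -0.71 for IGF2BP1, -0.61 to -0.40 for IGF2BP2 and -0.26 to -0.18 for IGF2BP3. For the difference the ranges were 0.31 to 0.90 for HMGA2, -1.47 to -1.23 for HMGA1 and 0.17 to 0.59 for LIN28B. Those of the IGF2BP genes were -0.63 to -0.02 for IGF2BP1, -0.43 to -0.18 for IGF2BP2 and -0.52 to -0.07 for IGF2BP3. Without replicate 2 of ETS1 siRNA the differences of IGF2BP1, IGF2BP2 and IGF2BP3 were -0.63, -0.41 and -0.52. For HMGA2 the lowest difference, 0.31, came without replicate 1 of siRNA control. A group left with 1 library was assumed to vary like the others.

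After siRNA, IGF2BP1 was called without a filter on low counts, at -0.57 (edgeR adjusted p 0.046), where 1466 of 27545 genes were called. LIN28B was called in the fit of all 8 libraries, at -0.73 (edgeR adjusted p 0.074), where 2166 of 17190 genes were called. After shRNA, IGF2BP3 was not called in the fit of all 8 libraries, at -0.23 (edgeR adjusted p 0.18), where its SE was 0.13 in place of 0.07. The difference of HMGA2 was not called with library size only, at 0.56, with the replicate block, at 0.62, or at an adjusted p under 0.05, at 0.65, which left 1 gene called in each. The replicate block changed no call of a partner. It moved the numbers of calls over all genes from 502 to 97 after siRNA, from 9988 to 9173 after shRNA and from 5974 to 4264 for the difference. Same-numbered deviations correlated at -0.538 and -0.244, so a crossed pairing was added after seeing the data and gave 3238, 10923 and 7467 calls. No label pairs the libraries this way, and the pairing was picked from these same deviations, so its calls are no evidence for a change. With it the log2 fold changes after siRNA were -0.73 for LIN28B and -0.60 for IGF2BP1, and the difference of IGF2BP2 was -0.31.

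Over all genes after siRNA the 502 calls became 1466 without a filter, 795 with the filter of the study, 797 with DESeq2, 2166 in the fit of all 8 libraries, 190 at an adjusted p under 0.05, and 72 and 1478 without replicate 1 of siRNA control and of ETS1 siRNA. Library size only shifted the median over all genes after shRNA by -0.125, with 3624 calls higher and 6269 lower in place of 4900 and 5088. The 5 partners stayed called lower with it.

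With canonical lengths, TPM in siRNA control, ETS1 siRNA, shCON and shETS1 were 792, 759, 295 and 102 for HMGA1, 256, 38.8, 79.5 and 17.4 for HMGA2, 0.939, 0.528, 8.13 and 5.60 for LIN28B and 5.18, 3.26, 6.11 and 2.75 for IGF2BP1. IGF2BP2 had 71.7, 58.1 and 26.0 TPM in the first 3 groups, and IGF2BP3 had 21.5, 42.0 and 30.5 TPM in siRNA control, shCON and shETS1. TPM serves to compare genes within a library, and the changes against the own control are those of the edgeR fits. In canonical UTRs the median of genes with ACCTCAA only after shRNA was -0.046. With 2 libraries per group and few LIN28B counts, changes of the partners after siRNA smaller than their intervals were not detectable.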
